A study of Homo sapiens with 6 samples.

Results

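The nuclear-encoded subunit genes of the 5 respiratory chain complexes were examined in cardiomyocytes made from the H9 human embryonic stem cells, an established line. Members were the rows whose symbol named an NDUFA, NDUFB, NDUFC, NDUFS or NDUFV subunit, an SDH subunit, a UQCR gene, CYC1, a subunit numbered COX4 to COX8, or an ATP5 gene. This gave 87 of the 28092 rows, after 1 pseudogene, UQCRBP1, was left out. They comprised 36 genes of complex I, 4 of complex II, 10 of complex III, 17 of complex IV and 20 of complex V, on 22 chromosomes. NDUFA4 was placed in complex IV, where its protein is now assigned, and read-through rows were kept. Of the 87 members, 84 passed the filter on low counts, and COX6B2, COX8C and ATP5MGL did not.

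The study asked how loss of ADPRHL1, a heart-enriched gene of the ADP-ribosylhydrolase family, affects cell adhesions. Polyadenylated RNA was sequenced from 3 ADPRHL1 knockout (KO) and 3 wild-type (WT) samples of H9-derived cardiomyocytes, with re-seeding at most 3 days before collection. No source used here gives the editing method, the number of KO clones or the day of differentiation. Nothing says whether replicates came from separate cultures, so each p-value reflects only how these 6 samples vary, which may be technical.

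Oxidative phosphorylation passes electrons from NADH (complex I) and succinate (complex II) through coenzyme Q to complex III, by cytochrome c to complex IV, and finally to oxygen. Complexes I, III and IV pump protons across the inner mitochondrial membrane, and complex V, the ATP synthase, uses the returning protons to make ATP. Heart muscle draws most of its ATP from this route, and some complex IV subunits have a heart and skeletal muscle form beside a widely expressed form. The mitochondrial genome encodes the remaining subunits of complexes I, III, IV and V, and those 13 genes were not analysed here.

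Promoter sequences are shown for 3 of the 4 complex II genes and for the muscle and common forms of COX6A, a pair in the isoform comparison. Complex II, like each other complex, held both genes called lower and genes that did not pass. Each window runs from 250 bases before to 50 bases after the RefSeq transcription start on GRCh38.p14, and is written 5′ to 3′ on the gene's own strand. SDHA lies at chr5:218070-218369 on the plus strand, SDHB at chr1:17053983-17054282 on the minus strand and SDHD at chr11:112086623-112086922 on the plus strand. COX6A2 lies at chr16:31428311-31428610 on the minus strand and COX6A1 at chr12:120437863-120438162 on the plus strand. Capitals mark matches, on either strand, to 4 motifs of factors known to bind mitochondrial or muscle gene promoters: TGCGCANGC for NRF1, CCGGAAGT for GABPA, TCAAGGTCA for oestrogen-related receptors and CTANNNNTA for MEF2.
SDHA: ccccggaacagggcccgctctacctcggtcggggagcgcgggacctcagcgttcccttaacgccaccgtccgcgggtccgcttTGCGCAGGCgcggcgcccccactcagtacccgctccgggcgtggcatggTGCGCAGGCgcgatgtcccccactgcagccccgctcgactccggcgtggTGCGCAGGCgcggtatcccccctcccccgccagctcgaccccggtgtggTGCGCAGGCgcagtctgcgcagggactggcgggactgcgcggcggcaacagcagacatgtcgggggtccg
SDHB: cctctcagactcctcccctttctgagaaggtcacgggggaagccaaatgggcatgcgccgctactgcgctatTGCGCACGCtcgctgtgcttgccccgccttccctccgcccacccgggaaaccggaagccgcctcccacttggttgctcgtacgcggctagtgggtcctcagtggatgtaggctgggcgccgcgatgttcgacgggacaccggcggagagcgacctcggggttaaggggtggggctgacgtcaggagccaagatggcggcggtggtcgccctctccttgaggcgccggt
SDHD: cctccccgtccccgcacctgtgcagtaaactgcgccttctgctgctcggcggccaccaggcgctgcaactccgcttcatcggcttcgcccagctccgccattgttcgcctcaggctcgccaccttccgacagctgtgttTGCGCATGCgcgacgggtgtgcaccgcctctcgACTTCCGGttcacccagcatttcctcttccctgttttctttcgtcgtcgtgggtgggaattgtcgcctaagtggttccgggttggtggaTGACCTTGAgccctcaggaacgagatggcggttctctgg
COX6A2: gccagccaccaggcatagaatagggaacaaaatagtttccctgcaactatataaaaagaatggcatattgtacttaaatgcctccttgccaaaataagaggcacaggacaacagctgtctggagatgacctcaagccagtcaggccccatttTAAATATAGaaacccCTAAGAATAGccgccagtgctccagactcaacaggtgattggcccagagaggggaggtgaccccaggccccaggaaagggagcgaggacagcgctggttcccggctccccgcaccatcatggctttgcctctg
COX6A1: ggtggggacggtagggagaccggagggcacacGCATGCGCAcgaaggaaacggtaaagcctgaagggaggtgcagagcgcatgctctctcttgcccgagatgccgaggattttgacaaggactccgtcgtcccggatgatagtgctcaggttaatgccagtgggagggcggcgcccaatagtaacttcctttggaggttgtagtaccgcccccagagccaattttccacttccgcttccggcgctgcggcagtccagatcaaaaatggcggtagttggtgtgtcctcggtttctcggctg

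The SDHA window held 4 NRF1 matches at an even spacing of 49 bases, starting 167, 118, 69 and 20 bases before the start. With both strands and overlapping matches counted, 10 of 27305 windows of all genes held at least 4, and among members these were SDHA and NDUFA8. SDHB held 1 NRF1 match, starting 178 bases before the start. SDHD held an NRF1 match 111 bases before the start, a GABPA match on the opposite strand 78 bases before it, and a receptor match on the opposite strand 11 bases after it. The COX6A2 window had no NRF1 match and 3 MEF2 matches, starting 98, 83 and 82 bases before the start. The last pair overlap in 1 stretch, read on opposite strands, and the MEF2 string leaves its middle letters free. COX6A1 had 1 NRF1 match on the opposite strand, 218 bases before the start.

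Across the 69 members with a window, the NRF1 motif was in 15 (21.7%), against 4.63% of all windows. The GABPA motif was in 10 (14.5%), against 4.44% of all windows, the MEF2 motif in 10 (14.5%), against 16.7%, and the receptor motif in 1 (1.45%), against 0.359%. Windows of members lower in KO held the NRF1 motif in 7 of 30 cases (23.3%), and windows of the other tested members in 7 of 37 (18.9%). These matches describe letters and not binding.

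Transcripts of the respiratory chain were modestly lower in KO cardiomyocytes. Of the 84 tested members, 38 were lower in KO, 2 were higher (NDUFB7 and COX7A2L) and 44 did not pass an adjusted p of 0.05 in edgeR's quasi-likelihood test. Over all 19558 rows tested, 28.6% were lower and 28.4% were higher, so the share of members called lower (45.2%) was above the background and the share called higher (2.38%) below it. In a test against a fold of 1.2, 9 of the 84 members were lower, a smaller share than the 17.5% of all rows. The median log2 fold change of the tested members was -0.13, a change of -8.87%, beside 0.0011 over all rows. Fold changes were negative for 66 members and positive for 18. Their spread was narrow, with an SD of 0.252 on the log2 scale beside 0.876 over all rows, and UQCRHL alone changed by more than 2-fold. All rows were not matched to the members for abundance, and the median member stood at their 95.9th percentile by FPKM.

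**Figure D1:**
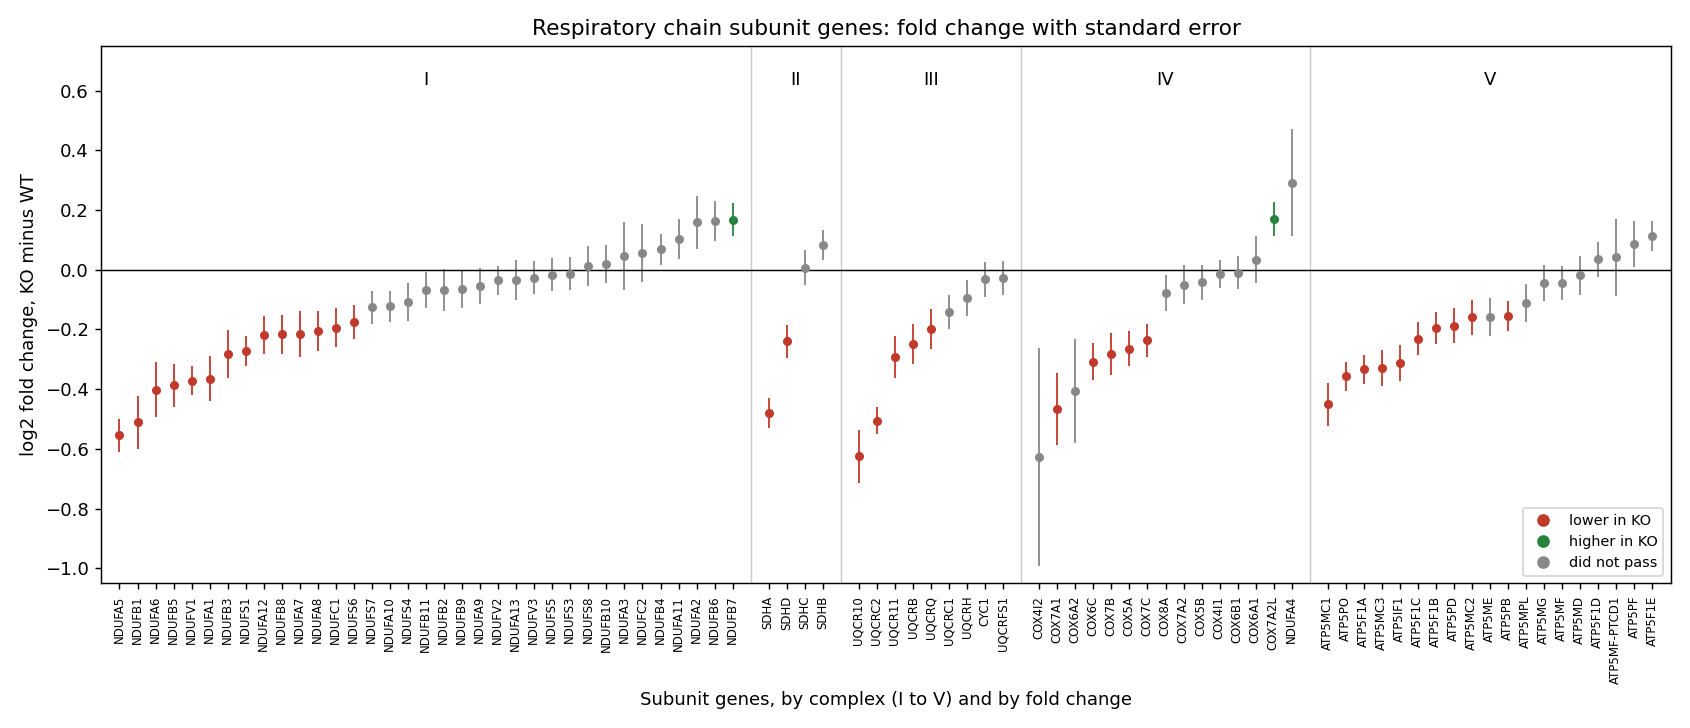
Log2 fold change (KO minus WT) with its standard error for the tested subunit genes named in the plot, ordered within complexes I to V, where red points were lower in KO, green points higher and grey points did not pass; UQCRHL, at -1.61, lies outside the axis. Most points lie below 0, and in each complex genes near 0 stand beside genes below -0.20.

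Many members also separated fully between genotypes. Every KO sample lay below every WT sample for 44 of 84 members, against a background of 32.5% of rows, and every KO sample lay above every WT sample for 6, against 31.9%. The groups overlapped for 34 members. Summed over all members, the length-scaled level was 8176, 7355 and 7842 FPKM in KO and 8387, 8559 and 8271 FPKM in WT. The KO sums were all below the WT sums, with means of 7791 ± 413 FPKM in KO and 8406 ± 145 FPKM in WT (SD, n = 3 each), a difference of -7.31%. By summed CPM the difference was -10.7%. Members made up 1.97% of all FPKM in KO and 2.28% in WT, so the size of the difference depended on the unit.

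KO replicate 2 was the lowest KO sample for 72 of 84 members, and for 6542 of all 19558 rows. Without it 30 members were lower and 3 higher, and the median log2 fold change was -0.11. Of all rows in that fit, 27.1% were lower and 25.9% higher. The 8 members no longer called were NDUFA8, NDUFC1, NDUFS6, NDUFA7, UQCRQ, UQCRHL, ATP5PD and ATP5MC2. Without WT replicate 2, 31 members were lower, beside 25.2% of all rows.

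**Figure D2:**
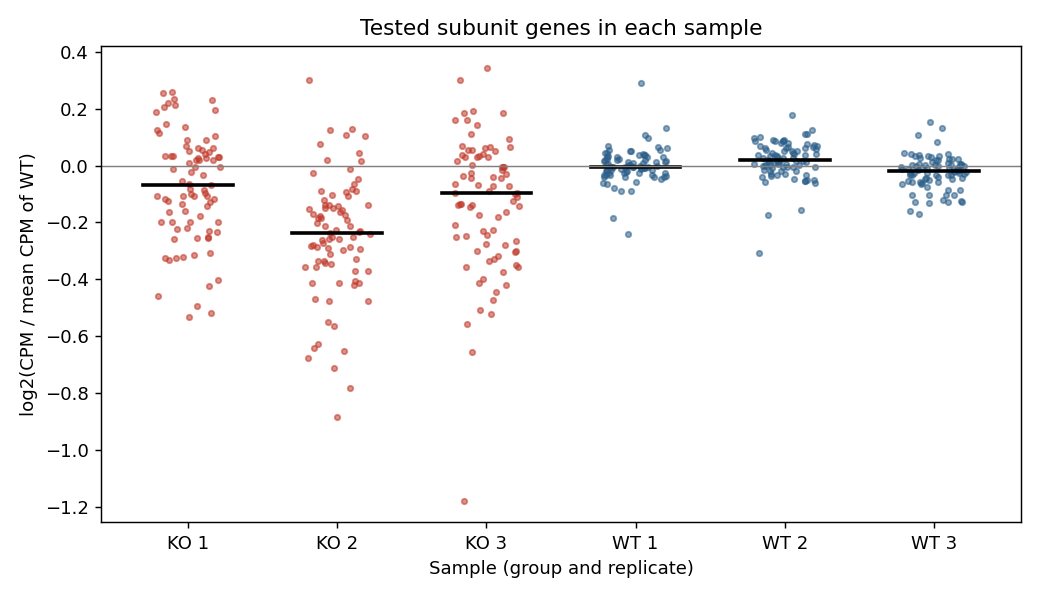
Each point is 1 tested subunit gene in 1 sample, as the log2 ratio of its CPM to the gene's mean CPM in WT, and black lines are medians. The KO samples spread more widely and lower than the WT samples, and KO replicate 2 has the lowest median.

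KO and WT samples also differed in their cell type markers. The counts below stand beside 28.6% lower and 28.4% higher over all rows tested. Cardiomyocyte markers were detected in every sample, but all 17 were lower in KO, with summed levels of 7908 to 8378 CPM in KO and 24674 to 24935 CPM in WT, and none was at 0. Their median log2 fold change was -1.67, far beyond that of the respiratory chain members. Fibroblast markers summed to 18466 to 21419 CPM in KO and 12492 to 12818 CPM in WT, with 12 of 16 higher and 3 lower. Endothelial markers were higher for 11 of 13 and lower for 1 (375 to 412 CPM in KO, 222 to 228 CPM in WT), and endoderm markers were higher for 8 of 10 and lower for 1 (288 to 370 CPM in KO, 193 to 214 CPM in WT). SOX17 was counted in both of these lists. Smooth muscle markers were lower for 6 of 8 and higher for 2 (3104 to 3411 CPM in KO, 4101 to 4295 CPM in WT). Of 5 tested skeletal muscle markers 3 were lower (sums of 175 to 201 CPM in KO, 479 to 522 CPM in WT), with MYOD1 and PAX7 at 0 in every sample. Of 5 tested pluripotency markers 3 were lower (5.59 to 7.52 CPM in KO, 17.2 to 17.8 CPM in WT), with NANOG at 0 in at least 1 sample. The part of cell composition in the subunit gene differences was not tested, and in bulk RNA fewer cells of a type and less RNA per cell cannot be told apart. ADPRHL1 itself measured 6.40, 5.81 and 7.56 CPM in KO and 83.7, 79.6 and 79.4 CPM in WT, so KO samples lay far below all WT samples, and depth was 21179650 to 21405718 counts per sample.

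Per length, these genes were abundant: the median member stood at the 95.9th percentile of tested rows, with a median of 70.9 FPKM in KO and 74.7 FPKM in WT. ATP5F1B, the catalytic beta subunit of the ATP synthase head, had the highest FPKM in every sample, followed by COX6A1. NDUFA4, which RefSeq now names COXFA4, was listed at 1.02, 0.80 and 1.06 FPKM in KO and 1.15, 0.88 and 1.26 FPKM in WT. These values overlap and are low for a gene known as a complex IV subunit. By counts it ran the other way, at 3.69, 3.87 and 3.99 CPM in KO and 3.45, 2.54 and 3.45 CPM in WT, with every KO value above every WT value. NDUFA4 did not pass by counts (log2 fold change 0.29, adjusted p 0.184), and its implied transcript length in KO was 1.43 times that in WT.

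Complex I, the NADH dehydrogenase, had 15 of 36 members lower in KO and 1 higher, with a median log2 fold change of -0.09. Those shares were 41.7% lower and 2.78% higher, against 28.6% and 28.4% of all rows tested. Among the 7 catalytic core subunits 3 were lower, and among the 29 accessory subunits 12 were lower and 1 higher. NDUFV1, the core subunit that carries the flavin at which NADH is oxidised (chr11:67606936-67612554), measured 103, 102 and 110 CPM in KO and 137, 137 and 134 CPM in WT. The groups did not overlap, and the log2 fold change was -0.37 (SE 0.0482, adjusted p 3.20e-05). NDUFS1, the largest core subunit and a carrier of iron-sulphur clusters, had 144, 144 and 132 CPM in KO and 175, 165 and 167 CPM in WT. All KO values were below all WT values (log2 fold change -0.27, SE 0.0509, adjusted p 0.000599). NDUFV2, which carries an iron-sulphur cluster beside NDUFV1, and NDUFS8, which carries clusters on the way to the quinone, did not pass, with log2 fold changes of -0.03 and 0.01.

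The accessory subunit NDUFA5 (chr7:123536997-123601651) had the largest fold change and smallest p in complex I. It measured 46.4, 43.4 and 47.2 CPM in KO and 67.9, 64.5 and 68.7 CPM in WT, with means of 45.7 ± 1.97 CPM in KO and 67.1 ± 2.21 CPM in WT (SD, n = 3 each). The groups were clearly separated (log2 fold change -0.55, SE 0.0548, adjusted p 2.96e-06). NDUFB1, a small membrane-arm subunit, had 21.1, 16.5 and 17.9 CPM in KO and 27.2, 25.7 and 26.2 CPM in WT, again without overlap (log2 fold change -0.51, SE 0.0882, adjusted p 0.000328). The other accessory subunits lower in KO were NDUFA1, NDUFA6, NDUFA7, NDUFA8, NDUFA12, NDUFB3, NDUFB5, NDUFB8, NDUFC1 and NDUFS6, with log2 fold changes between -0.40 for NDUFA6 and -0.17 for NDUFS6.

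NDUFB7, a membrane-arm subunit on the intermembrane-space side, went the other way. It had 63.8, 59.4 and 62.5 CPM in KO and 53.9, 58.5 and 52.9 CPM in WT, and the lowest KO value was just above the highest WT value. The gene passed (log2 fold change 0.17, SE 0.0567, adjusted p 0.0229) but no longer did without KO replicate 1, WT replicate 1 or WT replicate 3, at 0.14, 0.14 and 0.13. Nor did NDUFB7 pass in edgeR without the low-count filter (adjusted p 0.0653). NDUFB8, by contrast, was lower by counts (82.5, 68.9 and 76.4 CPM in KO, 91.5, 84.9 and 88.4 CPM in WT) but overlapped by FPKM (102, 85.1 and 94.5 in KO, 96.6, 88.5 and 92.5 in WT). The ratio of its implied transcript length in KO over that in WT was 0.860.

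Complex II, succinate dehydrogenase, also serves the tricarboxylic acid cycle, and 2 of its 4 members were lower in KO. That share of 50%, from only 4 genes, stands beside 28.6% of all rows tested. SDHA, the flavin-bearing catalytic subunit whose promoter held the 4 spaced NRF1 matches (gene at chr5:218320-268746), measured 112, 104 and 115 CPM in KO and 154, 151 and 154 CPM in WT. No KO value came near the WT values, and the log2 fold change was -0.48 (SE 0.0501, adjusted p 4.88e-06). SDHD, a membrane anchor that helps bind the quinone, had 43.0, 40.1 and 42.1 CPM in KO and 47.97, 49.2 and 50.8 CPM in WT, also without overlap (log2 fold change -0.24, SE 0.0552, adjusted p 0.00259). The partner subunits did not pass. SDHB, the iron-sulphur subunit that binds SDHA directly, had 65.3, 61.2 and 62.2 CPM in KO and 60.7, 58.1 and 59.4 CPM in WT. Every KO value lay above every WT value, but SDHB did not pass (log2 fold change 0.08, adjusted p 0.185), and neither did SDHC, the other anchor (0.01, adjusted p 0.932). Counts for SDHA are less certain than its p, since pseudogenes of it are rows of the same table.

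Complex III, the cytochrome bc1 complex, had 6 of 10 members lower and none higher, and the median log2 fold change was -0.22. Lower members were 60%, against 28.6% of all rows tested, of which 28.4% were higher. UQCRC2, a core scaffold subunit (chr16:21953361-21983660), measured 124, 119 and 126 CPM in KO and 174, 175 and 174 CPM in WT. The WT samples were nearly identical and the KO samples all lower, at a log2 fold change of -0.51 (SE 0.0452) and an adjusted p of 1.16e-06, the smallest of any member. UQCR10, a small subunit of the complex, had 20.8, 18.2 and 18.9 CPM in KO and 26.1, 31.6 and 31.5 CPM in WT, with no overlap (log2 fold change -0.62, SE 0.0881, adjusted p 6.56e-05). UQCR11, the smallest subunit, had 18.5, 18.9 and 19.0 CPM in KO and 22.4, 24.4 and 22.3 CPM in WT. Its KO values were tightly grouped below the WT values (log2 fold change -0.29, SE 0.0708, adjusted p 0.00355). UQCRB and UQCRQ were lower as well, at log2 fold changes of -0.25 and -0.20.

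The electron-carrying subunits of complex III did not pass. CYC1, cytochrome c1, had 131, 116 and 127 CPM in KO and 126, 135 and 123 CPM in WT. UQCRFS1, the Rieske iron-sulphur protein, had 122, 107 and 122 CPM in KO and 117, 122 and 119 CPM in WT. The groups overlapped for both, with log2 fold changes of -0.03 each that took a positive sign under upper-quartile scaling (adjusted p 0.662 for CYC1 and 0.693 for UQCRFS1). UQCRC1, the other core scaffold subunit, had 191, 165 and 187 CPM in KO and 205, 199 and 195 CPM in WT. Its groups did not overlap and its adjusted p of 0.0504 fell just outside the threshold (log2 fold change -0.14), though it passed with DESeq2 and limma-voom. UQCRHL, an intronless near-copy of UQCRH, was barely detected, at 0.140, 0.0461 and 0.423 CPM in KO and 0.709, 0.707 and 0.472 CPM in WT. It passed narrowly (log2 fold change -1.61, SE 0.606, adjusted p 0.0378) and did not pass when any 1 replicate other than KO replicate 3 was left out, while UQCRH did not pass (-0.10, adjusted p 0.193); reads shared by the pair could have been divided between them.

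**Figure D3:**
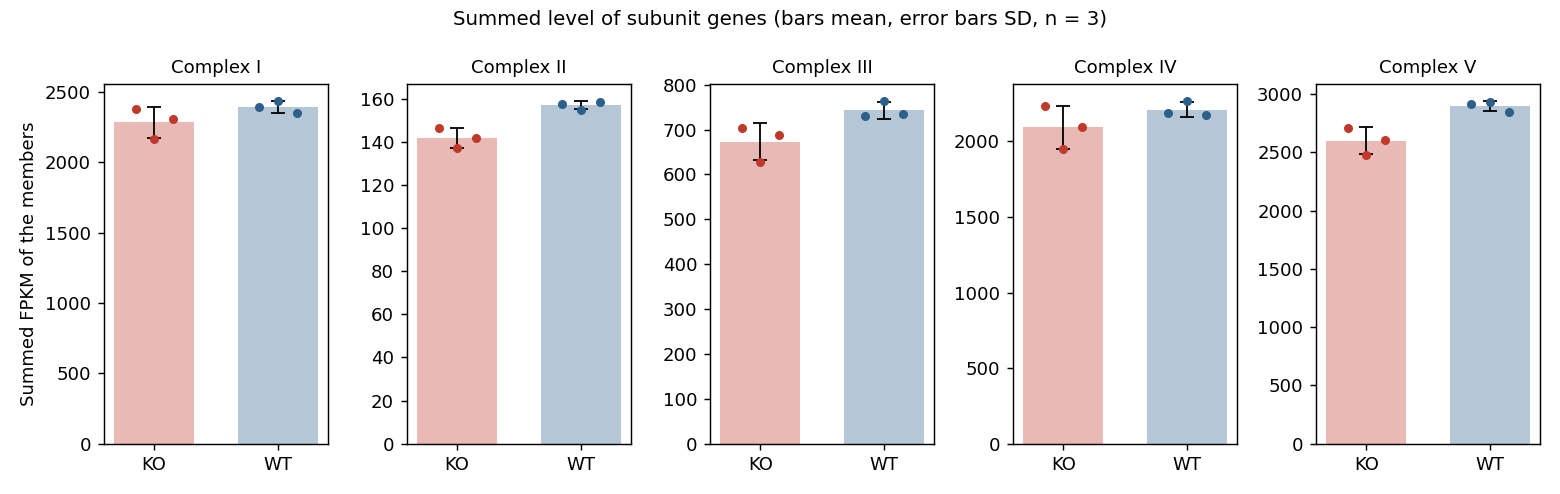
Summed FPKM of the member genes of each complex, where bars are group means, error bars are SD (n = 3) and points are samples. The KO points lie below all WT points for complexes II, III and V, and the groups overlap for complexes I and IV.

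By summed FPKM, complexes II, III and V separated between genotypes. Complex II summed to 147, 137 and 142 FPKM in KO and 158, 155 and 159 FPKM in WT, and complex III to 704, 627 and 688 FPKM in KO and 731, 764 and 734 FPKM in WT. Complex V summed to 2711, 2478 and 2609 FPKM in KO and 2914, 2934 and 2849 FPKM in WT. The differences between means were -9.68% for complex II, -9.42% for complex III and -10.3% for complex V, and -4.64% for complex I and -5.35% for complex IV, where the groups overlapped. By summed CPM complex I also separated, at 1997, 1818 and 1953 CPM in KO and 2116, 2126 and 2081 CPM in WT. The CPM differences were -8.77% for complex I, -14.7% for complex II, -12.9% for complex III, -6.04% for complex IV and -13.0% for complex V. FPKM were not rescaled to a common total per sample, and members were 1.97% of all FPKM in KO and 2.28% in WT. Both the size of these differences and the overlap of the FPKM sums thus depend on the scaling. A sum is led by its most abundant genes, and no test of a sum or of a difference between complexes was made.

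Complex IV, cytochrome c oxidase, had 5 of 15 tested members lower and 1 higher, with a median log2 fold change of -0.08. The share lower (33.3%) was near the 28.6% of all rows tested, and the share higher (6.67%) was below their 28.4%. COX6C, a membrane subunit, had 53.5, 48.6 and 49.99 CPM in KO and 60.1, 60.6 and 67.6 CPM in WT. COX5A, a matrix-facing subunit, had 114, 99.5 and 108 CPM in KO and 122, 132 and 132 CPM in WT. COX7C had 111, 97.2 and 103 CPM in KO and 121, 125 and 119 CPM in WT. None of these 3 genes overlapped between genotypes, and their log2 fold changes were -0.31 (SE 0.0622, adjusted p 0.00104) for COX6C, -0.26 (SE 0.0588, adjusted p 0.00206) for COX5A and -0.24 (SE 0.0547, adjusted p 0.00269) for COX7C. COX7B was lower by -0.28, and COX5B and COX8A did not pass, at -0.04 and -0.08.

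COX7A2L, known for joining complexes III and IV into supercomplexes, was higher in KO. It had 52.8, 48.7 and 51.5 CPM in KO and 43.5, 46.4 and 46.1 CPM in WT, with all KO values above all WT values. The log2 fold change was 0.17 (SE 0.0562, adjusted p 0.0207), and it no longer passed without KO replicate 1, WT replicate 1 or WT replicate 3, at 0.14, 0.13 and 0.17. Nor did COX7A2L pass with DESeq2 (adjusted p 0.0594) or in edgeR without the low-count filter (adjusted p 0.0632).

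Of the 2 muscle forms of complex IV subunits, COX7A1 was lower in KO and COX6A2 did not pass, although neither overlapped between genotypes; their widely expressed partners did not pass and overlapped. COX7A1, the heart and skeletal muscle form of subunit 7A (chr19:36150922-36152447), measured 13.8, 10.8 and 11.3 FPKM in KO and 16.7, 17.2 and 14.9 FPKM in WT. The groups did not overlap, and by counts it was lower in KO (log2 fold change -0.47, SE 0.120, adjusted p 0.0054). Its common partner COX7A2 had 107, 89.9 and 101 FPKM in KO and 97.5, 91.2 and 90.7 FPKM in WT. These overlapped, and COX7A2 did not pass (log2 fold change -0.05 by counts, adjusted p 0.533, and 0.09 on the FPKM scale).

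COX6A2, the muscle form of subunit 6A (chr16:31427731-31428360) and 1 of 10 members with a MEF2 match, had 12.3, 8.42 and 11.4 FPKM in KO and 13.2, 15.9 and 13.1 FPKM in WT. All KO values lay below all WT values, but COX6A2 did not pass (log2 fold change -0.41, SE 0.174, adjusted p 0.0629). Without KO replicate 1 it did pass, at -0.53 and an adjusted p of 0.039. COX6A1, the common form, had 403, 326 and 361 FPKM in KO and 354, 368 and 331 FPKM in WT, which overlapped (log2 fold change 0.03, adjusted p 0.738, with a negative sign without KO replicate 1 or WT replicate 3).

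COX4I2, known as a hypoxia-responsive and lung-enriched form of subunit 4, was low, at 1.97, 1.16 and 0.93 FPKM in KO and 2.50, 1.88 and 1.85 FPKM in WT. KO replicate 1 overlapped the WT range, and the gene did not pass (log2 fold change -0.63, SE 0.366, adjusted p 0.163) except without that replicate (-1.02, adjusted p 0.0464). COX4I1, the common form, had 237, 224 and 234 FPKM in KO and 232, 232 and 231 FPKM in WT, and COX6B1 had 264, 239 and 257 FPKM in KO and 251, 260 and 245 FPKM in WT. Both overlapped, with log2 fold changes of -0.01 that took a positive sign under upper-quartile and total-count scaling (adjusted p 0.811 for COX4I1 and 0.888 for COX6B1). COX6B2, a testis form, was untested at 0.28, 0.46 and 0.27 FPKM in KO and 0, 0.18 and 0.09 FPKM in WT; COX8C, also a testis form, was at most 0.09 FPKM in any sample, and COX7B2 was not analysed here.

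**Figure D4:**
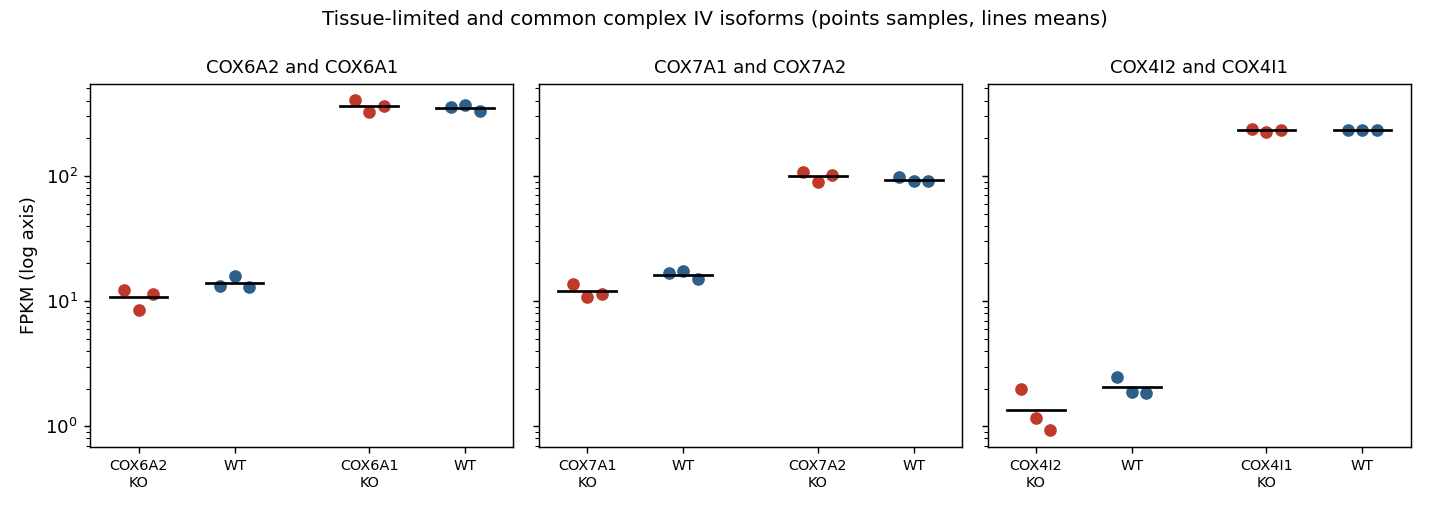
FPKM, on a log axis, of 3 tissue-limited complex IV isoforms and their common partners in KO (red) and WT (blue), where points are samples and lines are means. COX6A2 and COX7A1 lie lower in every KO sample than in any WT sample, and the common forms overlap.

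Within each pair the mean ratio of tissue-limited to common form was smaller in KO, but no ratio could reach significance. COX7A1 amounted to 12.1% of COX7A2 in KO and 17.5% in WT by mean FPKM, and the mean log2 ratio of FPKM + 1 was -2.95 ± 0.09 in KO and -2.45 ± 0.10 in WT (SD, n = 3 each). COX6A2 amounted to 2.95% of COX6A1 in KO and 3.997% in WT, with log2 ratios of -4.97 ± 0.13 in KO and -4.55 ± 0.10 in WT. COX4I2 amounted to 0.584% of COX4I1 in KO and 0.896% in WT, with log2 ratios of -6.65 ± 0.31 in KO and -6.25 ± 0.16 in WT. The differences in log2 ratio were -0.51 for COX7A1, -0.41 for COX6A2 and -0.41 for COX4I2, with 2-sided exact permutation p of 0.1, 0.1 and 0.3 (0.15, 0.15 and 0.3 adjusted over the 3 pairs). With 3 samples against 3 the smallest possible p is 0.1, so none of these ratios could pass 0.05. KO and WT did not overlap for COX7A1 or COX6A2. The COX4I2 difference was -0.63 with a pseudocount of 0.1.

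Complex V, the ATP synthase, had 10 of 19 tested members lower and none higher, with a median log2 fold change of -0.16. Lower members were 52.6%, against 28.6% of all rows tested, of which 28.4% were higher. The catalytic F1 head had 3 of 5 lower. ATP5F1A, its alpha subunit (chr18:46080248-46104227), measured 475, 427 and 451 CPM in KO and 569, 566 and 570 CPM in WT. The KO samples were all well below the tightly grouped WT samples (log2 fold change -0.33, SE 0.0498, adjusted p 0.000103). ATP5F1B, the catalytic beta subunit, had 844, 746 and 807 CPM in KO and 917, 941 and 885 CPM in WT, again with no overlap (log2 fold change -0.20, SE 0.0541, adjusted p 0.0081). ATP5F1C, the gamma subunit of the rotating shaft, was lower at -0.23, whereas ATP5F1D and ATP5F1E, the delta and epsilon subunits, did not pass, at 0.04 and 0.11.

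The c-ring, which turns as protons pass, is built of identical mature proteins encoded by 3 genes, and all 3 were lower (ATP5MC1 at -0.45, ATP5MC3 at -0.33 and ATP5MC2 at -0.16). ATP5MC1 had 61.4, 49.6 and 58.7 CPM in KO and 78.0, 79.2 and 74.7 CPM in WT, with a wide gap between the groups (SE 0.0720, adjusted p 0.000221). Of the 4 peripheral stalk genes, which hold the head still, 3 were lower. ATP5PO, the oligomycin sensitivity-conferring protein at the top of the stalk (chr21:33903453-33915804), had 108, 101 and 104 CPM in KO and 136, 129 and 136 CPM in WT. The groups did not overlap (log2 fold change -0.36, SE 0.0491, adjusted p 5.36e-05). ATP5PD and ATP5PB were lower at -0.19 and -0.15, and ATP5PF did not pass, at 0.09.

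None of the 5 tested small membrane subunits of complex V passed in either direction, with log2 fold changes from -0.16 for ATP5ME to -0.02 for ATP5MD. ATP5IF1, the inhibitor that stops the synthase running backwards, was lower (38.3, 35.9 and 35.8 CPM in KO, 45.3, 47.9 and 43.5 CPM in WT). Its KO values lay below all WT values (log2 fold change -0.31, SE 0.0602, adjusted p 0.000731). ATP5MF-PTCD1, a read-through row that shares exons with ATP5MF, did not pass, and reads of the pair could have been divided between the rows. ATP5MGL, an intronless relative of ATP5MG, was at most 0.26 FPKM in any sample.

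Counts and FPKM gave like numbers of calls. With limma on log2(FPKM + 1), 36 of 83 members were lower and 5 higher, against 28.9% lower and 29.2% higher of 14219 rows, and the median difference was -0.10. NDUFB8, UQCRQ and ATP5MC2 were called lower by counts alone, and NDUFS4 and NDUFV3 by FPKM alone. NDUFA2, NDUFB4 and ATP5F1E were called higher by FPKM alone. In 6 tested members, among them NDUFB8, UQCRQ and NDUFV3, the implied transcript length differed by more than 10% between genotypes, so counts and FPKM need not move together.

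Genes that build or regulate the complexes were described by the same fit, from lists chosen with earlier results known. Of 21 complex I assembly factors, 9 were lower and 1 higher, with a median log2 fold change of -0.12. AIFM1, known for importing respiratory chain proteins, was lower at -0.55, and NDUFAF2, a late complex I assembly factor, was higher at 0.35. Complex II and III assembly factors had 2 of 13 lower and 4 higher (median 0.0032), complex IV factors 8 of 27 lower and 4 higher (median -0.05), and complex V factors 2 of 6 lower and none higher (median -0.22). In coenzyme Q synthesis 4 of 13 genes were lower and none higher (median -0.09). The shares lower were 29.6% for complex IV factors, 33.3% for complex V factors and 30.8% for coenzyme Q synthesis. These were near the 28.6% of all rows tested, beside 42.9% for complex I factors and 15.4% for complex II and III factors.

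Among 24 regulators of respiratory chain genes, 10 were lower and 3 higher (median -0.14). These shares were 41.7% and 12.5%, against 28.6% and 28.4% of all rows tested. PPARGC1A, a coactivator known to promote mitochondrial biogenesis, had 39.6, 40.0 and 34.4 CPM in KO and 85.9, 85.2 and 92.8 CPM in WT. The KO values were all less than every WT value by a wide margin (log2 fold change -1.21, SE 0.0655, adjusted p 1.04e-08). ESRRG, an oestrogen-related receptor of heart muscle, fell by 1.51 on the log2 scale, and TFAM, which packages and transcribes mitochondrial DNA, fell by 0.37. ESRRA, the related receptor, was higher at 0.23, as were POLRMT, the mitochondrial RNA polymerase, at 0.45 and GABPB2 at 0.47. NRF1 had 16.9, 17.5 and 16.3 CPM in KO and 20.2, 18.0 and 18.7 CPM in WT, without overlap, and did not pass (log2 fold change -0.17, adjusted p 0.082).

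Genes of the tricarboxylic acid cycle, which supplies NADH and succinate to the chain, were listed with those of pyruvate dehydrogenase and pyruvate carboxylase. SDH genes, counted as members, were not in this list. Of its 19 genes 13 were lower and 1 higher, with a median log2 fold change of -0.31. These shares were 68.4% and 5.26%, against 28.6% and 28.4% of all rows tested. PDHA1 of pyruvate dehydrogenase (-0.62) and IDH2, the NADP-linked isocitrate dehydrogenase (-0.67), had the smallest p among the lower genes, and PC, pyruvate carboxylase, was the higher one (0.43). Mitochondrial import, porin and carrier genes had 7 of 35 lower and 14 higher, with a median of 0.08. Their share lower (20%) was below that of all rows, and their share higher (40%) above it. SLC25A4, the heart and muscle ADP/ATP carrier, was lower at -0.82, and TOMM40, the import channel of the outer membrane, was higher at 0.54.

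**Figure D5:**
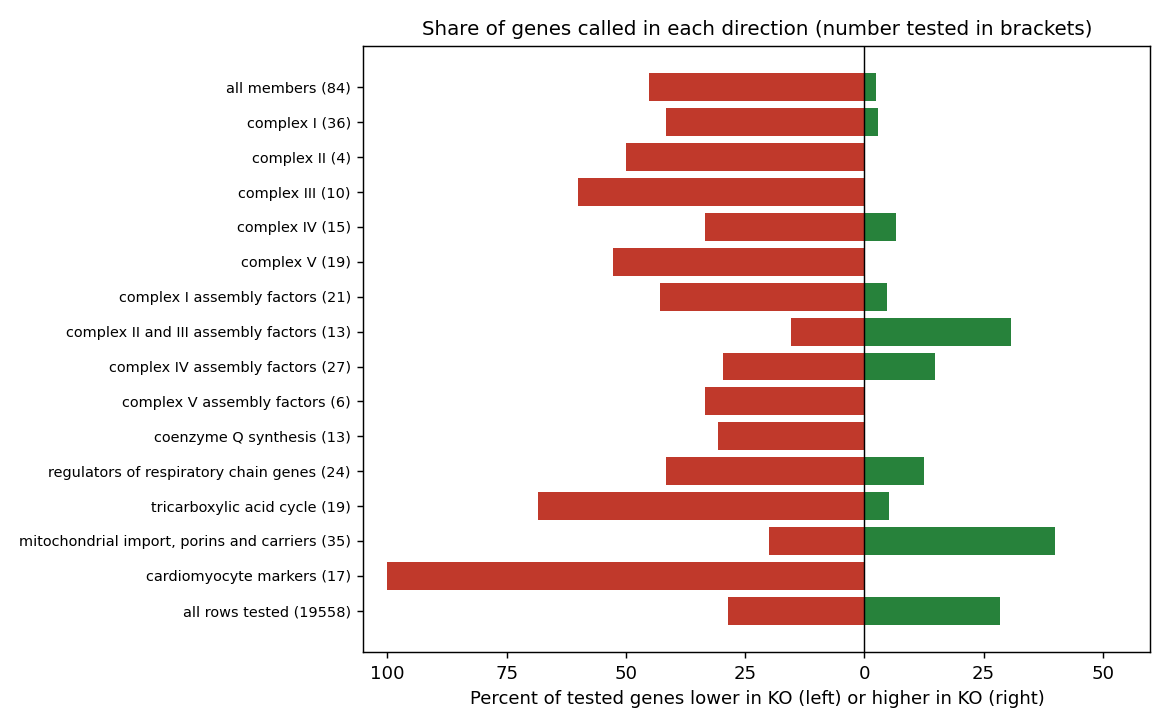
Percent of tested genes lower in KO (left of 0) or higher in KO (right of 0) for all members, each complex, related gene lists and all rows, with the number tested in brackets. Members were lower for 45.2% and higher for 2.38%, all rows for 28.6% and 28.4%, and import, porin and carrier genes for 20% and 40%.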

How the data were processed

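Oligo-dT-selected RNA of 3 ADPRHL1 KO and 3 WT samples was sequenced, per the labels' protocols. No source used here names the aligner, counting tool or annotation, and the submitters' processing notes name the build hg38 without a role. The authors deposited an estimated count and an expression value per gene and sample. The authors' expression values were treated as deposited FPKM, a unit their header does not name, from the length that count, total and value imply. That length varied by under 2% across samples in 51.2% of the 7766 rows with an FPKM over 5 in every sample, and by more in the others. Estimated counts were rounded, filtered with filterByExpr (minimum count 10, total 15), TMM-scaled and tested for genotype with edgeR 4.0.16 (robust quasi-likelihood) in R 4.3.3. Benjamini-Hochberg adjustment covered all 19558 rows tested, at a threshold of 0.05. CPM are TMM-scaled. Standard errors, taken from the F statistic, are approximate. FPKM were tested with limma 3.58.1 on log2(FPKM + 1), for rows with an FPKM of at least 1 in 3 samples. The pseudocount understates changes of low genes. Isoform ratios had an exact permutation test. The gene test was tested on simulated data. Every replicate pair differed beyond counting noise (chi-square over degrees of freedom from 3.37 to 6.81), so all 6 samples were used.

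Members, lists and named genes were chosen with earlier results of these data known. Values in every sample were given for catalytic subunits, isoform pairs, and in each complex the 3 lower and 2 higher members of smallest p with the member of largest fold change; further members were named after their values were seen, and from related lists examples of smallest p in each direction were named, with 4 regulators and NDUFA4L2 whatever their values. All 87 members matched RefSeq by Entrez ID, which gave coordinates on GRCh38.p14, and 69 had a promoter window. Results of 1 gene are not reported here, although counts include it. Settings varied were scaling (total-count, upper-quartile, RLE), tool (limma-voom, DESeq2 1.42.0), filter (a mean CPM of at least 1, none), unrounded counts, named rows only, a replicate block, FPKM with pseudocounts of 1 and 0.1, a test against a fold of 1.2, shared-sequence members left out, and each replicate left out.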

Additional observations from a re-analysis of the deposited data

How the results depend on the processing

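The count of members lower in KO was 38, and 33 to 41 under other scalings, tools, filters and units, 30 to 41 with 1 replicate left out, and 9 in a test against a fold of 1.2. The share of all rows lower was 21.6% to 30.3% under those scalings, tools, filters and units. It was 25.1% to 27.1% with 1 replicate left out. The fold test called 17.5% of all rows lower and 18.4% higher, so its 9 of 84 members lower were a smaller share than all rows. That test, stricter by construction, left 4 members lower in complex I, 1 in II, 2 in III, 0 in IV and 2 in V, and 0 higher. Without members that share sequence, 35 were lower in all and 1 in complex II. The count of members higher was 2. It was 4 under upper-quartile scaling, total-count scaling and a mean CPM filter, 5 on FPKM with either pseudocount, and 1 with DESeq2 or no filter. With 1 replicate left out it was 0 to 3, and the cause was not tested. With no filter NDUFB7 and COX7A2L did not pass in edgeR (adjusted p 0.0653 and 0.0632), so the 1 called was another member. COX7A2L also did not pass with DESeq2 (adjusted p 0.0594). Leaving out shared-sequence members is not counted in what follows, since it drops SDHA and UQCRB outright. Under the other alternatives, 28 of the 38 were called in all but the fold test. Those called in all of them were 9 (NDUFA5, NDUFV1, NDUFB1, NDUFB5, SDHA, UQCRC2, UQCR10, ATP5PO and ATP5MC1). Signs near 0, of genes that did not pass, turned. CYC1 was 0.0016 under upper-quartile scaling and -0.074 to 0.015 with 1 replicate left out. UQCRFS1 was 0.0049 under upper-quartile scaling and -0.064 to 0.028 with 1 left out. COX7A2 was 0.088 and 0.089 on FPKM with pseudocounts of 1 and 0.1, and -0.12 to 0.010 with 1 left out. COX6A1 was -0.054 to 0.11 with 1 left out. COX4I1 was 0.019 under upper-quartile scaling, 0.0072 under total-count scaling, 0.0016 with the mean CPM filter, 0.00029 on FPKM and -0.040 to 0.019 with 1 left out. COX6B1 was 0.023 under upper-quartile scaling, 0.011 under total-count scaling, 0.0059 with the mean CPM filter, 0.0083 and 0.0084 on FPKM, and -0.049 to 0.040 with 1 left out. No scaling moved the median of all rows by more than 0.034.

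With the replicate number as a block, 37 members were lower and 2 higher. Same-numbered samples correlated at 0.043, -0.015 and -0.16 in their deviations from group means. KO replicate 2 correlated best with WT replicate 3 (0.19), and KO replicate 3 with WT replicate 1 (0.13). With 3 samples per group these values cannot show whether same-numbered samples shared a batch or culture. The isoform ratio differences ranged, over their alternatives, from -0.47 to -0.34 for COX6A2, from -0.55 to -0.38 for COX7A1 and from -0.63 to -0.27 for COX4I2. At this depth COX6B2, COX8C and ATP5MGL could not be tested, and members under about 1 CPM (UQCRHL, COX4I2) rest on few reads.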

Other observations

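Genes outside the membership rule that carry or feed electrons, or are related to subunits, did not share 1 direction. Of 10 measured genes of this kind, 4 were lower in KO and 4 higher by edgeR's adjusted p. Each share was 40%, against 28.6% lower and 28.4% higher of all rows tested. ETFDH, which passes electrons from fatty acid oxidation to coenzyme Q, had 21.7, 21.9 and 18.4 CPM in KO and 29.3, 31.0 and 34.3 CPM in WT, a log2 fold change of -0.61 without overlap. CYCS, cytochrome c itself, had 181, 174 and 161 CPM in KO and 224, 212 and 232 CPM in WT (-0.37). SQOR, which passes electrons from sulphide to coenzyme Q, went the other way, with 6.82, 6.41 and 8.88 CPM in KO and 2.84, 2.73 and 2.27 CPM in WT (1.49). NDUFA4L2, a relative of NDUFA4 known as a hypoxia-induced gene, had 48.1, 44.1 and 54.3 CPM in KO and 34.5, 35.1 and 31.1 CPM in WT (0.54). None of these 4 genes overlapped between genotypes.

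Of 8 genes that shape cristae, make cardiolipin or modulate supercomplexes, 4 were lower and 1 higher. These shares were 50% and 12.5%, against 28.6% and 28.4% of all rows tested. CRLS1, the cardiolipin synthase, had 55.9, 52.1 and 51.6 CPM in KO and 99.0, 98.8 and 102 CPM in WT (log2 fold change -0.91). DNAJC15, known as a negative regulator of complex I activity, had 36.5, 38.7 and 34.2 CPM in KO and 147, 139 and 154 CPM in WT (-2.01), further apart than any respiratory chain member. STOML2, a cardiolipin-binding scaffold protein, was higher, at 91.0, 77.3 and 87.7 CPM in KO and 66.6, 70.2 and 66.3 CPM in WT (0.33).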
